A study of Homo sapiens with 8 samples.

Results

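The comparison described here sets HCC827 cells grown in 3D against HCC827 cells grown in 2D, gene by gene. HCC827 is a human lung adenocarcinoma cell line with an activating mutation of EGFR, the epidermal growth factor receptor. The comparison uses 4 of the 8 arrays of the study: 1 array of 3D culture without inhibitor, 1 of 3D culture with 1 µM gefitinib, and the same pair for 2D culture. Gefitinib inhibits the EGFR kinase. The difference of a gene was the mean of both 3D arrays minus the mean of both 2D arrays, in log2 units. A gene was kept as a member where both 3D arrays lay on the same side of both 2D arrays. Of 18244 genes measured, 11326 met that rule, 7532 with higher and 3794 with lower signal in 3D, and 6918 overlapped.

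The other 4 arrays hold A549, a lung adenocarcinoma line without an activating EGFR mutation, in the same cultures and treatments. For 2D culture 200000 cells were seeded per dish (21 cm2 of growth area) and harvested at 7 days. The 3D cultures were started from 100000 cells on a collagen scaffold and harvested at 14 days, and gefitinib was present for the last 3 days, from day 11. When gefitinib was added in 2D could not be read with certainty from the labels. RNA from 3D was released with beads for 5 min at 50 Hz and purified on a micro column, and RNA from 2D on a mini column, so culture form, culture time and RNA preparation cannot be told apart. From each sample 100 ng of total RNA was labelled for a 3′ in vitro transcription array. No condition was replicated, and all cells of a group came from 1 line, so the spread used below lies between a control array and a gefitinib array of the same culture.

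Cells on plastic form a flat layer that spreads on a stiff surface. On a scaffold they can attach to matrix and to each other on several sides, and access to oxygen and nutrients can differ with depth. Lung adenocarcinoma arises from cells of the distal airway and alveoli, which make mucins, secreted defence proteins and surfactant. Interferon-stimulated genes encode antiviral proteins and are switched on through a promoter sequence called the interferon-stimulated response element.

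Several facts of the arrays stand before any result. The array carries probe sets at the 3′ and the 5′ end of actin and GAPDH transcripts, and a large 3′ minus 5′ value means that less of the 5′ end was labelled. For actin it was 2.34 and 2.64 in the 3D arrays of HCC827 (control, gefitinib) and -0.09 and -0.10 in the 2D arrays. For GAPDH it was 0.97 and 1.57 in 3D and 0.01 and -0.04 in 2D. Both 3D arrays were thus far above both 2D arrays, which hardly differed from 0. Over both lines the actin value was 2.10 ± 0.47 (SD, n = 4) in 3D and -0.10 ± 0.04 (SD, n = 4) in 2D, a difference of 2.19 with an exact two-sided permutation p of 0.0286, the smallest that 4 arrays against 4 can give. Within HCC827 alone the exact permutation test cannot go below 0.333, which is the p it gave. Its part in the differences below was not tested, except that the probe sets of a gene are compared with each other.

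The treatment labels of the 2D arrays are the other limit. DUSP6, a phosphatase that is transcribed when the EGFR to ERK pathway is active, read 11.48 in the 3D control, 8.16 in 3D with gefitinib, 6.57 in the 2D array labelled control and 10.22 in the 2D array labelled gefitinib. It was lower with the inhibitor in 3D, and higher on the array labelled with it in 2D. The 2D arrays are therefore named by their labels throughout. The models used below hold culture and line but no treatment term, so their values are the same if the 2D labels are exchanged. Models with a treatment term do depend on the labels: 3954 genes were called as labelled and 5768 with the 2D labels exchanged.

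**Figure D1:**
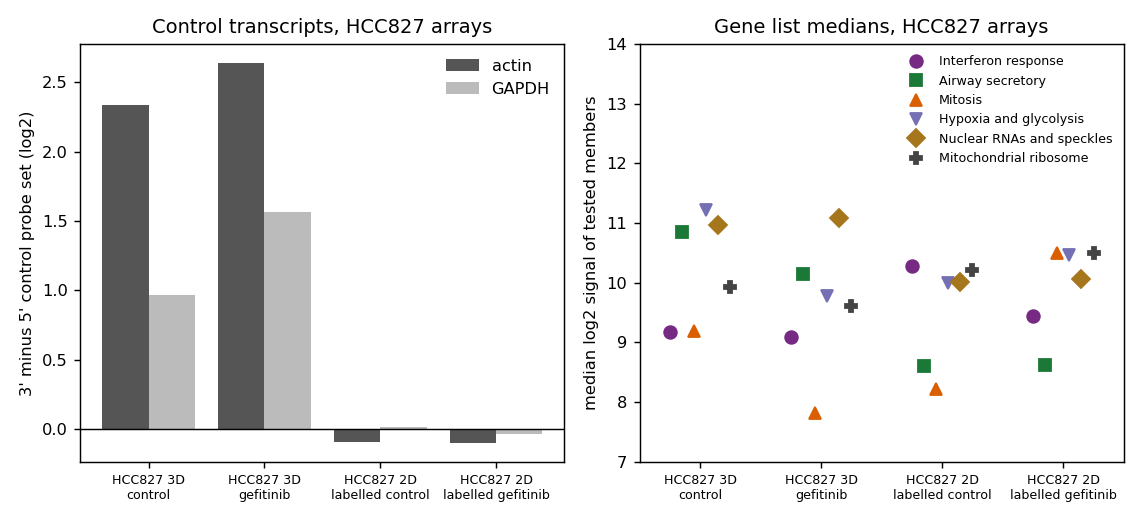
Left, 3′ minus 5′ signal (log2) of the actin and GAPDH control probe sets on each HCC827 array, as bars from 0. Both 3D arrays reach 2.34 and 2.64 for actin, and both 2D arrays lie near 0. Right, median log2 signal of the tested members of 6 gene lists on each array, 1 symbol per list and array. The airway secretory median is 10.85 and 10.14 in 3D against 8.60 and 8.61 in 2D, whereas the mitosis median differs within each culture.

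Markers of the labelled cell type were present. All 12 lung adenocarcinoma epithelial markers (EPCAM, keratins, NKX2-1, NAPSA and others) lay above the array median on 3 of the 4 arrays, and 11 did on the 2D array labelled gefitinib. Their summed linear signal was 87250 and 65750 in 3D and 71250 and 80000 in 2D, so the groups overlapped. Fibroblast markers summed to 1200 and 1329 in 3D and 2193 and 1433 in 2D, with 1 or 2 of 12 above the array median. The 2D surplus lay largely in LUM, a collagen-binding proteoglycan, at 9.93 and 8.47 in 2D and 6.28 and 7.37 in 3D. In the other direction COL1A1, a collagen chain, was higher in 3D, at 7.54 and 7.47 against 7.07 and 6.93 (0.51 ± 0.12, adjusted p = 0.0346). Endothelial markers summed to 1317 and 1295 in 3D and 1166 and 1108 in 2D, and leukocyte markers to 2564 and 1795 against 1791 and 2321. Their median signals, 6.66 to 7.03, were not far above the array's background probe sets, whose mean was 6.06 in 3D and 6.03 in 2D. Single members were higher. Of 12 leukocyte markers 4 and 3 lay above the array median in 3D and 3 and 4 in 2D. The highest leukocyte marker read 10.16 and 8.71 in 3D and 8.82 and 9.93 in 2D. Of 10 endothelial markers 2 and 2 lay above the array median in 3D, and 0 and 0 in 2D.

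Genes were tested if they lay above the array median on at least 2 of the 4 arrays, which left 11106 genes. Of these, 4448 (40.1%) were non-overlapping and higher in 3D, 3116 (28.1%) were non-overlapping and lower, and 3542 overlapped. A gene is called changed below where it was non-overlapping and its adjusted p from limma, a linear model with moderated variances and Benjamini-Hochberg adjustment, was under 0.05. That held for 2725 genes (24.5%), of which 1641 (14.8%) rose in 3D and 1084 (9.76%) fell. At an unadjusted p under 0.05 there were 4598. A difference of at least log2 1 was found for 805 of the genes that rose and 613 that fell, and of at least log2 2 for 66 and 39. The median difference of all tested genes was 0.08.

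The split between rises and falls depended on the probe set taken for a gene. With the highest-mean probe set 60.2% of the calls were rises, with the mean of all probe sets 44.5% of 3051 calls, and with the largest-variance probe set 45.2% of 4942 calls. With limma no gene was called when either 3D array was left out: 0 of 10454 without the control (3588 at an unadjusted p under 0.05) and 0 of 10509 without the gefitinib array (3018). Without the 2D array labelled control 739 were called, and without that labelled gefitinib 174. Each of these fits has 1 residual degree of freedom. So has the fit with treatment as a block in HCC827, as labelled, which called 0 genes (3555 at an unadjusted p under 0.05). In 4 group means over both lines, 4732 and 3994 were called without these 3D arrays. At the edge of the rule among tested genes, KRTAP12-2 had the smallest gap between the groups of those that met it, 2.76e-04. NPB had the smallest overlap of the tested genes that did not, 8.15e-05. At the threshold, MYLIP passed with a difference of 0.55 (adjusted p = 0.04996) and QNG1 missed it with -0.73 (adjusted p = 0.05001).

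A gene read by 1 high group only passes the filter through that group. Both 2D arrays lay under the array median for 301 of the genes that rose, and both 3D arrays for 97 of those that fell. The 301 include PIGR, NFATC4, PLEKHS1, CP, HLA-DRB1 and COL1A1, and the 97 include IFIT1 and IDI1. These genes entered the test only through the culture where they were high, so their SE and adjusted p are no separate support. In an extract of many cells, a larger share of cells with a transcript and more transcript in each cell cannot be told apart.

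The largest changes among genes whose probe sets all pointed the same way were led by an epithelial transporter of antibodies. PIGR, the receptor that carries polymeric immunoglobulins through epithelia, read 10.52 in the 3D control, 10.04 in 3D with gefitinib, 6.69 in the 2D array labelled control and 6.49 in the 2D array labelled gefitinib. Both 3D arrays were far above both 2D arrays, a difference of 3.69 ± 0.22 (SE) with an adjusted p of 0.0144, the smallest found for any gene. The 2D values lay close to the background probe sets, so no fold is given. PRODH, the mitochondrial enzyme that starts proline breakdown, read 11.73 and 11.45 in 3D and 7.77 and 8.22 in 2D, a rise of 3.60 ± 0.25. NFATC4, a transcription factor regulated by calcineurin, rose by 3.12 ± 0.19, from 7.26 and 7.18 to 10.50 and 10.19 (2D, then 3D). Like PIGR, it passed the filter through the 3D arrays alone.

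The next in size were genes of varied roles. LTB4R, a receptor for the lipid mediator leukotriene B4, rose by 2.87 ± 0.19, from 7.79 and 7.66 in 2D to 10.49 and 10.70 in 3D. GABRE, a subunit of the GABA-A receptor, rose by 2.81 ± 0.25. DHRS3, which reduces retinaldehyde, read 12.13 on both 3D arrays and 9.32 and 9.36 on the 2D arrays, so the gap was wide and the spread within each culture small. PLEKHS1 rose by 2.80 ± 0.18 and RGL3, a regulator of Ral GTPases, by 2.55 ± 0.29. TPM2, the beta tropomyosin of actin filaments, rose by 2.78 ± 0.28, against the direction of other actin-binding genes below.

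Of the genes that fell, PKIB, a peptide inhibitor of the cAMP-dependent protein kinase, changed most. It read 8.78 and 7.91 in 3D and 11.22 and 11.62 in 2D, a difference of -3.08 ± 0.34 (adjusted p = 0.0144). All 5 of its probe sets fell, by 2.00 to 3.08. DUSP10, a phosphatase of the stress kinases p38 and JNK, read 7.69 and 7.44 in 3D and 9.73 and 9.59 in 2D, and BCAT1, which transaminates branched-chain amino acids, 8.81 and 9.18 against 11.37 and 10.80. Neither gene overlapped between cultures, which the rule for called genes requires.

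The remaining large falls were in genes of varied roles. HSP90AA1, the inducible cytosolic chaperone, read 10.93 and 10.74 in 3D and 13.12 and 12.90 in 2D, a fall of -2.17 ± 0.21, though its other probe set differed by only -0.09. PMAIP1, a pro-apoptotic BH3-only protein, differed by -2.12 ± 0.37, and GCLM, the modifier subunit of glutathione synthesis, by -2.19 ± 0.32. STRAP (-2.14 ± 0.20), the calcium buffer CALB1 (-2.14 ± 0.49) and GLIPR1 (-2.15 ± 0.50) completed the largest falls with the ribosomal and mitochondrial genes described below. Both cultures of GLIPR1 and CALB1 were apart, as for every called gene, but their 2D arrays differed by over log2 1 from each other.

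**Figure D2:**
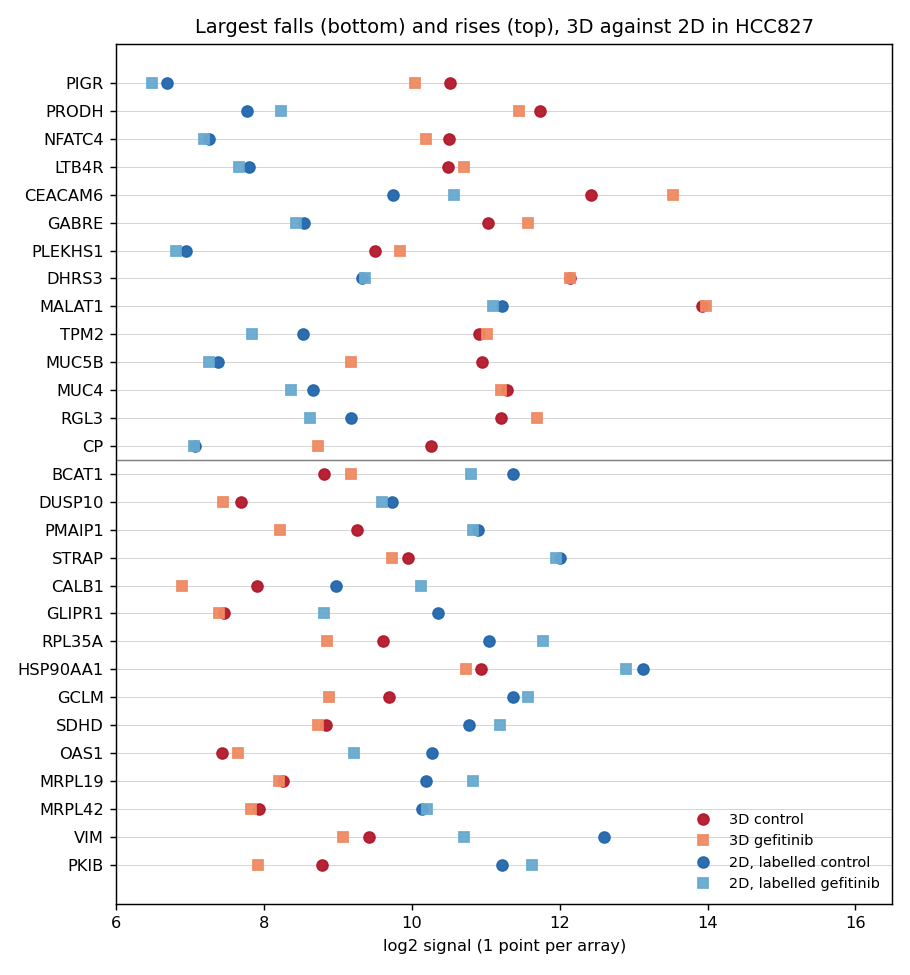
Log2 signal of the 14 rises and 15 falls with the largest differences among genes whose probe sets agreed, 1 point per HCC827 array, 3D in red tones and 2D in blue tones. Red and blue points are apart for each gene because the rule for called genes requires it. PIGR sits at 10.52 and 10.04 in 3D and 6.69 and 6.49 in 2D. VIM has the widest distance between its 2D points, 12.60 and 10.71.

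Genes of airway secretion rose together. Of 29 measured members of a list of mucins and airway secretory proteins, 18 passed the filter, 11 of these rose and none fell, where 14.8% of all tested genes rose. The median of the 18 was 1.67, against 0.08 for all tested genes. By array the list median was 10.85 and 10.14 in 3D and 8.60 and 8.61 in 2D. Since 3 of the 11 passed the filter through the 3D arrays alone, the values over all 29 measured members are given too: 21 were non-overlapping and higher and none lower, and the median was 0.62. Over all genes measured, 7532 of 18244 were higher by that rule.

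After PIGR the largest rise of the list was in CEACAM6, an adhesion molecule of the epithelial surface, at 12.43 and 13.53 in 3D and 9.74 and 10.57 in 2D (2.83 ± 0.46, adjusted p = 0.0182). MUC5B, a gel-forming airway mucin, read 10.94 and 9.18 in 3D and 7.38 and 7.25 in 2D (2.75 ± 0.56, adjusted p = 0.0269). Its 3D control was higher than its 3D gefitinib array by more than log2 1. MUC4, a membrane mucin that can bind ERBB2, read 11.28 and 11.20 in 3D and 8.67 and 8.36 in 2D (2.73 ± 0.21). CP, the copper-carrying ferroxidase ceruloplasmin, rose by 2.44 ± 0.49.

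Alveolar genes also rose, in 7 of 17 tested members (41.2%, against 14.8% of all tested genes), and none fell. The list median was 0.64. Over all 24 measured members 15 were non-overlapping and higher and 1 lower, and the median was 0.52. LPCAT1, which makes surfactant phospholipid, read 13.51 and 14.30 in 3D and 11.74 and 11.61 in 2D (2.23 ± 0.30). ABCA3, the lipid transporter of lamellar bodies, rose by 1.75 ± 0.18, the aspartic protease NAPSA by 1.55 ± 0.26 and SFTA3 by 1.50 ± 0.38. NKX2-1, the lung lineage transcription factor, read 12.22 and 12.12 in 3D and 10.88 and 11.23 in 2D, a rise of 1.12 ± 0.22. SFTPB, which encodes surfactant protein B, was near the array median on each array, at 7.71 and 7.40 in 3D and 7.38 and 7.26 in 2D (0.23 ± 0.15, adjusted p = 0.300).

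Cell junction genes moved little as a list. Of 28 tested members 3 rose (10.7%, against 14.8% of all tested genes) and none fell, with a median of 0.25 that was -0.04 when all probe sets of a gene were averaged and 0.12 without the 3D control. CLDN3, a tight junction claudin, rose by 1.57 ± 0.20, SPINT1, an inhibitor of membrane serine proteases, by 1.40 ± 0.23 and the polarity gene LLGL2 by 1.09 ± 0.25. CDH1, the epithelial cadherin, read 12.78 and 12.58 in 3D and 12.57 and 12.37 in 2D, a difference of 0.21 ± 0.21 (adjusted p = 0.472), and its cultures were separated by a small gap only. Its other probe set went the opposite way, at 8.50 and 8.37 in 3D and 9.52 and 9.31 in 2D (-0.98). Of 17 tested keratin and squamous genes 3 rose (17.6%, near the share of all tested genes): KRT4 by 2.14 ± 0.50, envoplakin (EVPL) by 1.34 ± 0.17 and periplakin (PPL) by 0.75 ± 0.20. The other 3 probe sets of PPL overlapped between cultures, with differences of -0.06 to -0.05.

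Matrix genes moved little as a list. Of 24 tested integrins, laminins and matrix receptors 5 rose (20.8%, against 14.8% of all tested genes) and none fell, and the median of 0.38 was 0.04 over averaged probe sets. LAMB2, a laminin chain of basement membranes, read 9.01 and 9.36 in 3D and 7.58 and 7.34 in 2D (1.72 ± 0.20), and LAMA5 rose by 1.51 ± 0.34. Among 19 tested receptor tyrosine kinases and their ligands and regulators, 8 rose (42.1%, against 14.8%) and 1 fell, with a median of 0.57 that was 0.13 over averaged probe sets, 0.34 without the filter and 0.32 without the 3D control. INSR, the insulin receptor, read 10.50 and 10.23 in 3D and 8.37 and 7.98 in 2D (2.19 ± 0.23). ERBB2, a partner receptor of EGFR, read 10.87 and 11.01 in 3D and 9.51 and 9.39 in 2D (1.48 ± 0.20), while its other probe sets ranged down to -0.18. FGFR3 rose by 1.60 ± 0.23 and EPHB4 by 1.50 ± 0.18.

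EGFR itself did not pass. It read 11.66 and 11.12 in 3D and 10.40 and 10.96 in 2D, a difference of 0.71 ± 0.31 (adjusted p = 0.143). The cultures were apart, but its 8 probe sets gave differences from -1.08 to 1.25, so they had no common sign. Of 21 tested ERK target genes none was called by limma (1 at an unadjusted p under 0.05), and 18 overlapped between cultures, DUSP6 among them (1.43 ± 1.51, adjusted p = 0.516). Over all tested genes 3542 of 11106 overlapped.

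Among 22 tested NF-κB targets and chemokines 5 rose (22.7%, against 14.8% of all tested genes) and none fell. NFKBIA, the inhibitor that NF-κB itself induces, read 12.84 and 12.62 in 3D and 11.37 and 10.31 in 2D (1.89 ± 0.38), and the membrane chemokine CX3CL1 11.12 and 9.93 against 8.61 and 8.52 (1.96 ± 0.41). The list median of 0.42 was -0.18 without the 2D array labelled gefitinib, -0.03 without the 3D control, 0.98 without the 2D array labelled control, 0.79 without the 3D gefitinib array and 0.02 without the filter, so it had no stable size or sign. Of 14 tested complement and acute phase genes 2 rose (14.3%, against 14.8% of all tested genes). They were CP, and CFI, the protease that inactivates complement C3b (1.68 ± 0.30).

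Interferon-stimulated genes fell in part. Of 46 measured genes of the list 43 were tested, 14 of them fell (32.6%) and none rose, where 9.76% of all tested genes fell. By the overlap rule 27 of 43 were lower (62.8%, against 28.1% of all tested genes) and 6 higher (14.0%, against 40.1%). The list median was -0.72, and -0.86 over averaged probe sets, -0.41 without the 2D array labelled control and -1.05 without that labelled gefitinib. By array it was 9.17 and 9.09 in 3D and 10.28 and 9.45 in 2D, so the 2D array labelled control stood highest.

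IFIT1, which binds viral RNA that lacks a host cap, read 7.02 and 7.10 in 3D and 10.32 and 9.27 in 2D, a difference of -2.74 ± 0.35 (adjusted p = 0.0147). EPSTI1 read 7.03 and 7.46 in 3D and 10.002 and 9.001 in 2D (-2.26 ± 0.36), and OAS1, which makes the second messenger that activates RNase L, 7.43 and 7.64 against 10.28 and 9.22 (-2.21 ± 0.36). IFI6 read 9.33 and 8.97 in 3D and 11.78 and 10.63 in 2D (-2.05 ± 0.41). In each of these genes the 2D array labelled control was about log2 1 above the 2D array labelled gefitinib. Both 3D arrays lay below both, as the rule for called genes requires. IFIT1, EPSTI1 and IFI6 have 1 probe set each, whereas the 4 probe sets of OAS1 all fell, by 0.57 to 2.21.

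Since these genes moved together, their promoters are shown for the letters of the response element, GAAANNGAAA, searched on both strands in the 250 bases before the start in RefSeq, build GRCh38.p14. Of 38 measured list members with a promoter in that table, 22 (57.9%) held it, against 839 of 27305 (3.07%) of all promoters and 205 of 9194 (2.23%) of tested genes. It was in 9 of 12 members that fell (75.0%) and in 12 of 23 tested members that did not (52.2%), so the letters were common in both. Among all genes that fell 23 of 903 (2.55%) held it, and among all that rose 27 of 1355 (1.99%). OAS1 had no match in this window. The stretches of 100 bases below hold the matches in capitals, read 5′ to 3′ on the strand of the gene: IFIT1 at chr10:89392470-89392569 (plus strand), IFI6 at chr1:27672236-27672335 (minus strand) and EPSTI1 at chr13:42992242-42992341 (minus strand). The first 2 hold 2 matches each and the last holds 1, and a match on the opposite strand appears as the reverse complement.
IFIT1: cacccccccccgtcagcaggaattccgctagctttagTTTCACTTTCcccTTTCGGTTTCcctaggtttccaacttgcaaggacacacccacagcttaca
IFI6: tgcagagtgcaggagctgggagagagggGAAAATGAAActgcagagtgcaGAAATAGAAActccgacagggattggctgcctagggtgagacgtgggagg
EPSTI1: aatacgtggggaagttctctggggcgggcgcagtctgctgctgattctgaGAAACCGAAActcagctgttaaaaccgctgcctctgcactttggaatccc

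Genes of antigen presentation were mixed. Of 25 tested members 2 rose and 2 fell (8% each way, against 14.8% and 9.76% of all tested genes), and the median was 0.03. Over averaged probe sets of these genes it was -0.16, and -0.48 over the 15 that passed the filter after averaging. The sign also turned without either 3D array (-0.06 without the control, -0.03 without gefitinib) and without the 2D array labelled gefitinib (-0.11). The immunoproteasome subunit PSMB9 fell by the probe set used, reading 8.87 and 8.75 in 3D and 10.08 and 10.11 in 2D (-1.28 ± 0.18). Another of its probe sets overlapped between cultures (-0.11), and another was higher in 3D (0.40). HLA-B fell by 0.81 on the log2 scale. HLA-DRB1 rose by 1.01 ± 0.21. TAPBP, which loads peptides on class I molecules, rose by 1.34 ± 0.28 by the probe set used, while another of its probe sets gave -1.02.

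The intermediate filament gene VIM and several contractile genes were lower in 3D. VIM, a marker of mesenchymal cells, read 9.42 and 9.06 in 3D and 12.60 and 10.71 in 2D, a difference of -2.41 ± 0.61 (adjusted p = 0.0435), and both its probe sets fell. TGFBI, a secreted matrix protein induced by TGF-β, read 11.80 and 10.62 against 13.08 and 13.47 (-2.06 ± 0.42). These were the 2 called members of 14 tested mesenchymal genes (14.3%, against 9.76% of all tested genes). The list median was -0.51, and -0.19 without the 2D array labelled control and -0.13 without the filter. VIM did not pass with averaged probe sets, without the filter, after cyclic loess normalization or with a robust variance prior, and its difference was -1.47 without the 2D array labelled control.

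Of 33 tested actin cytoskeleton genes 6 fell (18.2%, against 9.76%) and 1 rose. CNN3, an actin-binding calponin, read 8.74 and 8.71 in 3D and 11.76 and 11.42 in 2D (-2.86 ± 0.22), with arrays of a culture close together. It has 1 probe set. The myosin light chain MYL12A fell from 13.41 and 12.45 in 2D to 10.87 and 10.95 in 3D (-2.02 ± 0.35), and alpha tropomyosin TPM1 differed by -1.90 ± 0.30. The 9 probe sets of TPM1 gave differences from -2.07 to 0.16, with a mean of -0.71. TPM2 was the 1 that rose, so the tropomyosins did not move alike by the probe sets used. Among 17 tested YAP target genes, which respond to cell spreading, 1 rose (5.88%, against 14.8% of all tested genes) and none fell. It was ARHGEF17 (1.00 ± 0.25).

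Hypoxia and glycolysis genes as a list overlapped between cultures, 28 of 35, where 3542 of 11106 tested genes did. Of the 35, 2 rose (5.71%, against 14.8% of all tested genes) and none fell. ANGPTL4, a lipase inhibitor induced by low oxygen and by fatty acids, was an exception at 12.40 and 10.73 in 3D and 7.11 and 9.25 in 2D (3.39 ± 0.84, adjusted p = 0.0410). VEGFA, the endothelial growth factor induced by low oxygen, read 13.68 and 12.97 in 3D and 10.21 and 11.74 in 2D (2.35 ± 0.55, adjusted p = 0.0354). For both genes the 3D control was highest and the 2D array labelled control lowest. By array the list median was 11.22 and 9.77 in 3D and 10.00 and 10.46 in 2D. The median difference of the list was 0.11 in HCC827 and 1.09 in A549. No member passed for the difference between lines in limma, and 7 were lower in HCC827 at an unadjusted p under 0.05.

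Cell division genes differed more within a culture than between cultures. The median of 33 mitosis genes was 9.18 and 7.82 in 3D and 8.22 and 10.49 in 2D. Over all tested genes 3542 of 11106 overlapped, and of the 33 mitosis genes 30 did. None was called by limma, and 3 had an unadjusted p under 0.05. MKI67, expressed in cycling cells, read 9.28 and 7.74 in 3D and 7.44 and 9.39 in 2D (0.10 ± 0.77, adjusted p = 0.936). CCNB1, the cyclin of mitotic entry, read 8.51 and 7.40 against 9.14 and 11.12 (-2.18 ± 0.71, adjusted p = 0.0755). Of 40 tested DNA replication genes 33 overlapped and 1 (2.5%, against 14.8% of all tested genes), the polymerase subunit POLD1, rose by 1.15 ± 0.23.

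Part of the nuclear-encoded mitochondrial genes fell in 3D. Of 52 tested respiratory chain genes 19 fell (36.5%, against 9.76% of all tested genes) and none rose, with a median of -0.58 that was -0.99 with the largest-variance probe set and -0.39 after cyclic loess. Of 45 mitochondrial ribosomal genes 15 fell (33.3%) and none rose, with a median of -0.66 that was -0.43 after cyclic loess. MRPL42, of the large mitochondrial ribosomal subunit, read 7.93 and 7.83 in 3D and 10.14 and 10.20 in 2D (-2.29 ± 0.17). SDHD, which anchors complex II in the membrane, read 8.84 and 8.73 against 10.77 and 11.19 (-2.19 ± 0.23), and its 5 probe sets fell by 1.45 to 2.54. COX5A, of complex IV, differed by -2.06 ± 0.27, MRPL19 by -2.28 ± 0.26, MRPS28 by -2.07 ± 0.23 and MRPS30 by -1.85 ± 0.22. COX5A, MRPS28 and MRPS30 have 1 probe set each, and the other probe set of MRPL19 differed by -0.765. Of the called genes, 7 of the respiratory chain and 4 of the mitochondrial ribosome have 1 probe set. In A549 the medians of these lists were -0.61 and -0.55.

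Genes of protein targeting to the endoplasmic reticulum and of its stress response fell in 8 of 32 tested members, where 9.76% of all tested genes fell, and none rose. SRP9, of the signal recognition particle, read 9.29 and 9.05 in 3D and 11.84 and 11.86 in 2D (-2.68 ± 0.20), from 1 probe set. SRP19 and SRP54, of the same particle, differed by -1.15 ± 0.21 and -1.13 ± 0.18, and the signal peptidase gene SPCS1 by -1.33 ± 0.19. The other probe set of SPCS1 gave 0.15.

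Nuclear transcripts and speckle genes rose. Of 26 tested members 16 rose (61.5%, against 14.8% of all tested genes) and none fell, with a median of 1.24, and 0.63 over averaged probe sets. MALAT1, a long non-coding RNA kept in the nucleus, read 13.92 and 13.97 in 3D and 11.22 and 11.10 in 2D (2.79 ± 0.19). The splicing factor SRRM2 rose by 2.73 ± 0.23, PNISR by 2.51 ± 0.22 and the cyclin CCNL2 by 1.98 ± 0.27. Of the 16, 7 were supported by their other probe sets as defined below and 4 had a probe set that went the other way by 0.5 or more. In A549 the list median was 0.79.

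Of 56 tested members of a list of cytosolic ribosomal protein genes 7 rose and none fell, a share of 12.5% against 14.8% of all tested genes. By the overlap rule 42 were higher (75.0%, against 40.1%). The list median was 0.41, and 0.23 over averaged probe sets. RPS28 read 15.16 and 15.45 in 3D and 14.27 and 14.02 in 2D (1.16 ± 0.20), and RPL32 rose by 0.91 ± 0.18. RPL35A, which is of this family but not on the list, went the other way, at 9.61 and 8.86 in 3D and 11.04 and 11.77 in 2D (-2.17 ± 0.37). Its other probe sets differed by only -0.10, with overlapping cultures, and -0.31. Genes of this family have many near-identical processed copies, which makes their probe sets uncertain.

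Metabolic lists were mixed. Over all tested genes 9.76% fell and 14.8% rose. Of 24 tested sterol synthesis genes 3 fell (12.5%) and 2 rose (8.33%). The enzymes SQLE (-2.01 ± 0.31) and IDI1 (-1.50 ± 0.24) were among those that fell, while SREBF1, a regulator of lipid synthesis, rose by 0.96 ± 0.20. Of 22 genes of the NRF2 oxidative response 4 fell (18.2%) and 3 rose (13.6%). GCLM and malic enzyme ME1 (-1.77 ± 0.20) were lower, and the exporter ABCC3 (2.26 ± 0.19) and GPX2 (1.65 ± 0.22) were higher. ABCC3 read 12.50 and 12.45 in 3D and 10.21 on both 2D arrays. Of 17 PPAR and fatty acid genes 2 rose and 2 fell (11.8% each way): ANGPTL4 and ACADVL higher, FABP5 (-1.85 ± 0.46) and ACADM (-1.27 ± 0.20) lower.

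Stress lists did not move one way either, and their shares stand beside the same 9.76% and 14.8% of all tested genes. Of 24 tested ATF4 targets 2 fell (8.33%), CTH (-1.91 ± 0.23) and SLC38A2 (-1.43 ± 0.30), and 1 rose (4.17%), CBS, by 1.14 ± 0.21. Of 22 p53 targets 9.09% fell and 9.09% rose. The cyclin-dependent kinase inhibitor CDKN1A (-1.03 ± 0.28) and CCNG1 (-1.47 ± 0.19) fell, while FBXW7 (1.80 ± 0.18) and SUSD6 (1.18 ± 0.20) rose. Among 29 lysosome genes 5 fell (17.2%) and 2 rose (6.90%). ATP6V0D1 (-1.16 ± 0.21) and ATP6V1A (-1.12 ± 0.21) fell most, while the acid glucosidase GAA (1.83 ± 0.21) rose most. Among 20 proteases and their inhibitors 3 fell and 1 rose, a larger share of falls and a smaller share of rises than among all tested genes. SERPINB5 (-1.17 ± 0.17), KLK10 (-1.08 ± 0.27) and ADAM10 (-0.95 ± 0.16) fell, and the membrane metalloprotease MMP14 (0.98 ± 0.16) rose. The other probe set of KLK10 gave 0.345, and 1 of SERPINB5 gave 0.215.

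**Figure D3:**
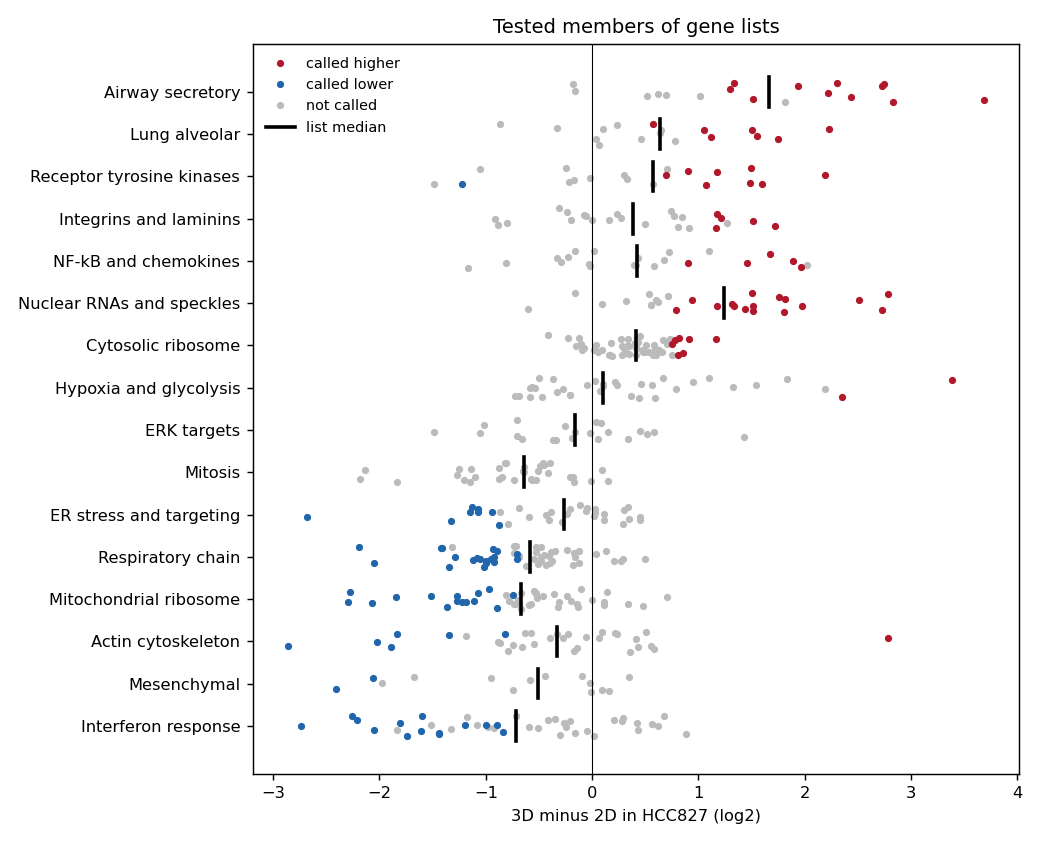
Difference of 3D minus 2D in HCC827 (log2) for each tested member of 16 gene lists, 1 point per gene, with called genes in red (higher) or blue (lower), other genes in grey and the list median as a bar. The airway secretory median lies at 1.67 and the interferon median at -0.72. Mitosis and ERK target genes have no coloured point.

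Probe sets of the same gene read different stretches of its transcript, so their agreement bears on every value above. Of the 1641 genes that rose 410 have 1 probe set, and of the other 1231 all probe sets had the same sign in 766 (62.2%). A gene is supported where that holds and at least 1 other probe set is itself non-overlapping the same way: 699 of the 1231 (56.8%) were. In 110 (8.94%) another probe set went the opposite way by 0.5 or more. Of the 1084 genes that fell 811 have several probe sets, and 579 (71.4%) were supported and 20 (2.47%) had an opposite one. By the overlap rule alone 42.9% of the rises and 62.3% of the falls were supported, and 16.0% and 4.78% had an opposite probe set.

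ALG13, a glycosyltransferase subunit, shows how far probe sets can part. The probe set used read 11.52 and 11.78 in 3D and 9.158 and 9.004 in 2D, a rise of 2.57 ± 0.21. However, 3 of its 5 probe sets were lower in 3D (-1.73, -1.58 and -0.675), and the mean over all 5 was 0.04. WSB1, a substrate adaptor of a ubiquitin ligase, rose by 2.14 ± 0.20 with a probe set at -1.10, and MFHAS1 by 2.13 ± 0.26 with one at -0.91. Among the falls, the kinase MAP3K20 differed by -1.86 ± 0.17 with a probe set at 0.87, and the junction gene PERP by -1.31 ± 0.22 with one at 0.86. With the largest-variance probe set PERP turned to 0.86 and ACADVL, a mitochondrial acyl-CoA dehydrogenase, from 1.18 to -1.54. NFATC4 has 16 probe sets with differences from 0.06 to 3.16, all above 0 but of very unequal size.

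**Figure D4:**
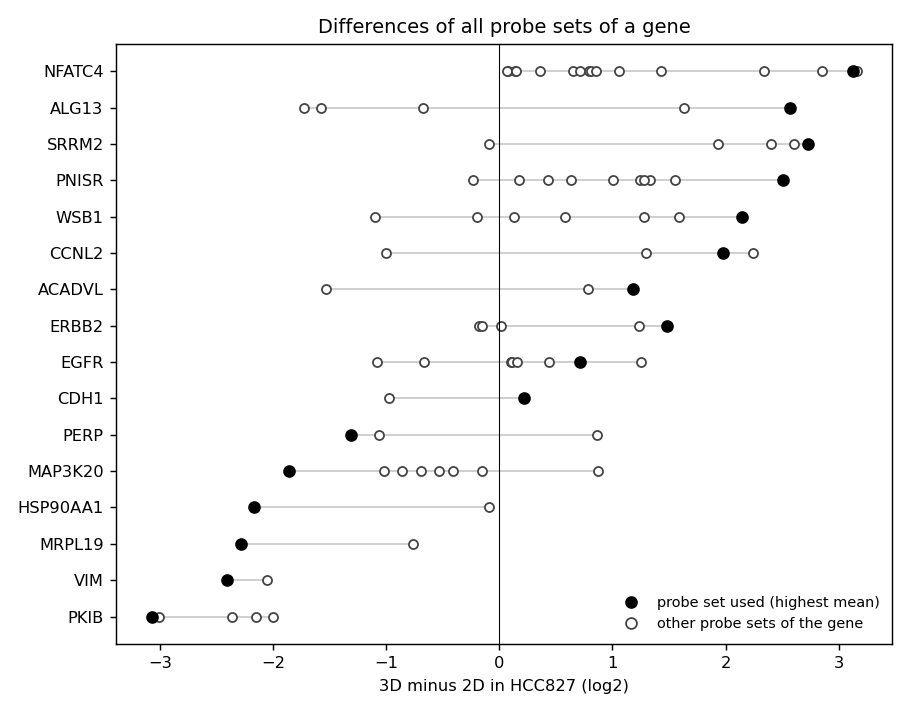
Difference of 3D minus 2D in HCC827 (log2) of every probe set of 16 genes, with the probe set used filled and the others open. All probe sets of NFATC4 lie above 0 and all of PKIB and VIM below it. Those of ALG13, EGFR and PERP lie on both sides.

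The change in A549, measured on arrays that HCC827 does not share, went mostly the same way. Of the 1641 genes that rose in HCC827, both A549 3D arrays were above both A549 2D arrays for 1508 (91.9%), where 51.2% of tested genes were. Of the 1084 that fell, 985 (90.9%) were lower in A549, where 28.5% of tested genes were. In the opposite direction stood 37 and 28. The median difference of the genes that rose was 0.99 in HCC827 and 0.75 in A549, and of those that fell -1.04 and -0.60. RNA preparation differed with culture in both lines.

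The difference between the lines was tested directly, as HCC827 minus A549 of 3D minus 2D over the 8 arrays. The lines share 1 estimate of the spread per gene in this model. Across probe sets the SD of the difference between control and gefitinib arrays was 0.16 (3D) and 0.15 (2D) in A549, and 0.33 and 0.34 in HCC827. The shared spread can thus be too small for HCC827. Of 11926 genes 201 (1.69%) passed, 98 with a higher and 103 with a lower value in HCC827, and 115 of the 201 were also called in HCC827. At an unadjusted p under 0.05 there were 2016. The count ranged from 10 to 12 when any 1 A549 array was left out, and among HCC827 arrays it was 635 without the 3D control, 127 without the 3D gefitinib array, 183 without the 2D array labelled control and 416 without that labelled gefitinib.

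The largest differences between lines among genes supported in HCC827 included genes with a low signal in A549. PIGR differed by 3.37 ± 0.23 (adjusted p = 0.00189), and in A549 it read 6.46 and 6.54 in 3D and 6.16 and 6.20 in 2D, close to background probe sets. PLEKHS1 (2.99 ± 0.19) and MUC4 (2.89 ± 0.18) likewise stayed between 5.94 and 6.30 on the A549 arrays. NFATC4 (2.67 ± 0.18) read 6.87 and 6.92 against 6.46 and 6.41 in A549. PIGR, PLEKHS1 and NFATC4 lay above the array median on the HCC827 3D arrays only and entered this test through them. Their SE and adjusted p for the difference between lines are therefore no separate support. CFI rose in HCC827 and was lower in 3D in A549, at 9.36 and 9.16 against 10.31 and 10.72, a difference between lines of 2.94 ± 0.36 (adjusted p = 0.0206). PRODH rose in both, at 8.99 and 8.69 against 7.86 and 7.28 in A549, with a difference between lines of 2.33 ± 0.34.

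Lower in HCC827 were PKIB (-2.69 ± 0.38, adjusted p = 0.0226), BCAT1 (-2.10 ± 0.29), the tubulin TUBB6 (-1.76 ± 0.31), AFAP1L2 (-1.74 ± 0.27) and DUSP10 (adjusted p = 0.0253). BCAT1 was near background in A549, at 6.49 and 6.43 in 3D and 6.53 and 6.37 in 2D. The values for VIM (-2.73, adjusted p = 0.123) and CEACAM6 (2.43, adjusted p = 0.0764) did not pass, and both have a wide spread within HCC827 cultures. Of the 43 interferon genes none passed for the difference between lines in limma (23 at an unadjusted p under 0.05, all lower in HCC827), and the A549 list median was 0.09 and that of HCC827 -0.72. Of the 18 airway secretory genes PIGR and MUC4 passed.

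**Figure D5:**
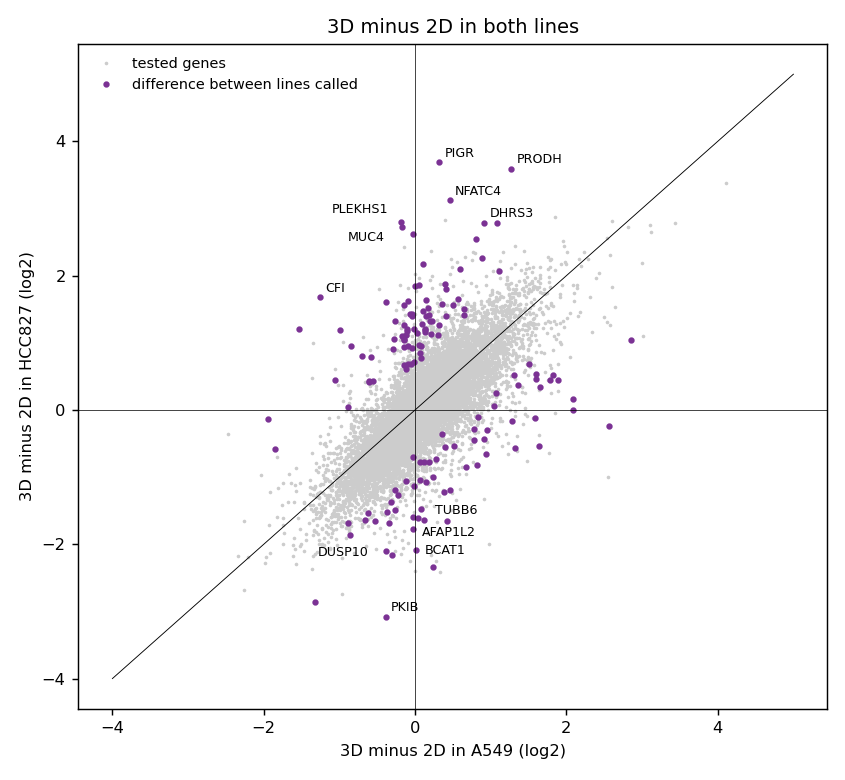
Difference of 3D minus 2D (log2) in A549 on the horizontal and in HCC827 on the vertical axis, 1 grey point per tested gene, with the line of equality. Purple points are genes tested in HCC827 whose difference between lines passed. PIGR lies at 3.69 in HCC827 and 0.32 in A549, and PKIB at -3.08 and -0.39.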

How the data were processed

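The deposited values are RMA (robust multi-array average) log2 signals for 49495 probe sets. Per the submitters' processing notes the authors computed them with R 3.2.1. The genome build is one of the points not given in the sources used here. Among these, 45278 had 1 gene symbol in the array annotation and were used, 1333 had several and 2782 were not listed, and 102 were controls; 45208 matched a RefSeq gene (assembly GRCh38.p14). Each of the 18244 genes was represented by its brightest probe set, that is, the highest in mean over 8 arrays; 11825 genes had more than 1. Genes above the array median on at least 2 of 4 HCC827 arrays were tested (11106; 7138 set aside).

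The fit was limma 3.58.1 in R 4.3.3 on 2 group means of the 4 HCC827 arrays, with moderated variances (empirical Bayes, trend on mean signal; 2 residual plus 3.42 prior degrees of freedom), two-sided, and p-values were adjusted by Benjamini-Hochberg over all 11106 genes, with a threshold of 0.05. Standard errors (±, SE) are from this fit. The labels name no replicates: p-values measure the spread between arrays that also differ in gefitinib. Depth has no meaning for arrays, and their number limits the precision. The difference between lines was fitted on 4 group means over 8 arrays and 11926 genes, those above the array median on at least 2 of the 8 arrays. The fit was tested on simulated data. Across probe sets the HCC827 arrays of a culture had Pearson r of 0.978 (3D) and 0.977 (2D), and no 2 arrays were identical.

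The members, the gene lists and the tests were chosen with earlier results of these data known. Named genes were, by rule, the 15 largest rises and falls whose probe sets agreed, up to 4 called members of each list with the largest differences, 8 preset genes, the 5 largest rises and falls with an opposite probe set, and the 8 largest differences between lines each way; 1 gene of the largest rises is not reported here. SFTPB, LUM, COL1A1 and the genes at a threshold were named after their values were seen. Alternatives changed the probe set, filter, normalization, model and variance prior, and left out single arrays. Figures were drawn in Python 3.11.15 with matplotlib 3.10.9.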

Additional observations from a re-analysis of the deposited data

Results flagged for a closer look

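A different change in both lines was found by the test of the difference itself for 201 genes, the model being fitted over 8 arrays with 1 array of each condition. Of the genes named in the text, the change from 2D to 3D in HCC827 exceeded that in A549 for PIGR (3.37), PLEKHS1 (2.99), CFI (2.94), MUC4 (2.89), NFATC4 (2.67), PRODH (2.33), DHRS3 (1.88), RGL3 (1.74), TPM2 (1.70), ABCC3 (1.38), SPINT1 (1.26) and CBS (1.11). It was lower for PKIB (-2.69), BCAT1 (-2.10), TUBB6 (-1.76), AFAP1L2 (-1.74), DUSP10 (-1.71), CNN3 (-1.54) and MAP3K20 (-0.99), all in log2 units. PIGR, PLEKHS1 and NFATC4 entered this test only through the HCC827 3D arrays, where they were high, so passing it is no separate support for them. No group held 4 arrays of 1 condition, so no array could be tested as standing apart from its group.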

How the results depend on the processing

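The main count of 2725 genes stayed within 1.5 times under the mean of all probe sets (3051), the highest-mean probe set over HCC827 arrays (2704), no filter (2494), a filter on the mean (2535), cyclic loess (3111), a robust prior (2829), no variance trend (2624) and a 6-coefficient model with treatment as labelled (3954). It was 4942 with the largest-variance probe set, 5114 with 4 group means over 8 arrays, 5768 with 6 coefficients and the 2D labels exchanged, and 0 with treatment as a block in HCC827 as labelled, a model with 1 residual degree of freedom (3555 at an unadjusted p under 0.05). Leaving out 1 HCC827 array gave 0 to 739 genes. Chosen after seeing the data, the 4-group model without 1 HCC827 array gave 3994 to 4820 (4732 without the 3D control, 4191 without the 2D array labelled gefitinib), the lone array being assumed to vary like the others. The count of 201 differences between lines was 337 with the largest-variance probe set, 690 with the 2D labels exchanged, 0 with 6 coefficients as labelled (1696 at an unadjusted p under 0.05), and 10 to 635 without 1 array. The 7564 tested genes without overlap were 7043 to 11326 under other probe sets, filters and normalization. The treatment block is the only pairing of arrays across cultures, since no condition was replicated. Among list medians whose size exceeded the spread between arrays of a culture (1 SD), those reversed were junction genes (-0.039, averaged probe sets), sterol synthesis (from -0.542 to 0.0295 when 1 array was left out, the latter without the 2D array labelled gefitinib) and fibroblast markers (0.0187, no filter). Medians within that spread turned too, so that in all 17 of 33 lists had the opposite sign under at least 1 alternative, 13 of them when 1 array was left out. Without the 2D array labelled gefitinib mitosis went from -0.645 to 0.31, DNA replication from -0.53 to 0.12 and NF-κB targets from 0.42 to -0.18, and without the 3D control hypoxia went from 0.11 to -0.57. ACADVL (-1.54) and PERP (0.86) were reversed with the largest-variance probe set. The median of all tested genes was 0.08, and -0.05 with averaged probe sets and 0.18 after cyclic loess. Among 107 of the named genes, 102 of them called, the mean of all probe sets ended 14 calls, a robust prior 9, no filter 6 and cyclic loess 3. Other probe sets, fewer arrays and fewer residual degrees of freedom belong to the alternatives' own construction, and beyond that the cause was not tested.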
